A study of Mus musculus with 2 samples.

Results

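Lgr5, Ascl2, Axin2, Olfm4, Smoc2, Rnf43, Znrf3, Tnfrsf19, Sox9 and Cd44 are genes that mark the stem cells at the base of the intestinal crypt or that Wnt signaling switches on there. They were taken by name as a set of 10 among the 27998 genes of the count matrices, and all 10 had UMIs in both libraries. All are protein coding, and their positions beside their names come from GENCODE M21 on the mouse build mm10. Their levels were read across 10 annotated cell types in single cell RNA-seq of jejunal crypts from 375KO mice, in which the microRNA miR-375 is deleted from the whole body.

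The data come from 2 male mice, replicate 1 and replicate 2, each 12 months old, with 1 library per mouse. Both carry the same genotype, miR-375 knockout, on a strain labelled C57BL6/2J. According to the methods of the study the deletion was made with CRISPR/Cas9 in FVB x B62J F1 hybrid embryos and backcrossed to B6 albino mice, and the body of the mouse as a whole lacks the microRNA, not the epithelium alone. Neither mouse received a treatment, and wild-type libraries were not analysed here, so the values describe 375KO crypts only. The authors kept 2082 cells with 44017234 UMIs in replicate 1 and 1193 cells with 22163354 UMIs in replicate 2, and no cell barcode was shared. A UMI, or unique molecular identifier, stands for 1 captured RNA molecule. The cells were annotated by the authors as stem, transient amplifying (TA), enterocyte, goblet progenitor, goblet, secretory progenitor, Paneth, enteroendocrine (EEC) and tuft cells and intraepithelial lymphocytes (IEL). Of the 3275 kept cells 256 were stem cells, 139 in replicate 1 and 117 in replicate 2. The stem label was looked at with 6 stem cell markers outside the set, and 5 of 6 had their highest level in stem cells in both mice. The authors named the types from known markers in the same cells, so this is not an independent check of the label.

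Wnt proteins bind Frizzled and Lrp receptors on crypt cells and stop the destruction of β-catenin, which then enters the nucleus and acts with Tcf factors. R-spondins strengthen this signal through Lgr receptors, which keep the ubiquitin ligases Rnf43 and Znrf3 away from Frizzled. Stem cells at the crypt base receive the most Wnt, divide into TA cells, and lose the signal as their daughters move up toward the villus.

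Promoter sequences are shown for 3 members, Axin2 as a direct Wnt target, Ascl2 as a stem cell factor and Tnfrsf19 as the one with a motif match, because genes answering to Wnt are often bound by Tcf factors, for which ATCAAAG and AACAAAG are known binding letters. RefSeq promoters on the mouse build GRCm38.p6 matched 6 of the 10 genes, with 8 promoters in all, and Lgr5, Smoc2, Znrf3 and Sox9 had no entry. Only the 250 bases before each start site were searched, on both strands. Of these 8 promoters 1 held a match, ATCAAAG, in 1 of the 2 promoters of Tnfrsf19, and 8.06% of all 32851 promoters in the table held at least 1 match of either motif. The Axin2 window (chr11:108920099-108920348, plus strand) and the Ascl2 window (chr7:142969265-142969514, minus strand) end directly before the first base of the gene in GENCODE M21 and overlap no annotated gene. The Tnfrsf19 window (chr14:61037988-61038237, minus strand) lies in an intron of Tnfrsf19 as GENCODE annotates it and overlaps an exon of the gene Gm41168. Unlike for Axin2 and Ascl2, the bases shortly after this RefSeq start were not found in a GENCODE transcript of the gene. Capitals in the Tnfrsf19 sequence mark the ATCAAAG match, with 195 bases between it and the start site.
Axin2: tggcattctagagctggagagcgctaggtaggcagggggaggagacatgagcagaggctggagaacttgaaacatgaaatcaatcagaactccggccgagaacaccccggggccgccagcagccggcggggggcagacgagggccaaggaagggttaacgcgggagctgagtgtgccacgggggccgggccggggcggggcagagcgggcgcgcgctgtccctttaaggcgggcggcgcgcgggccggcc
Ascl2: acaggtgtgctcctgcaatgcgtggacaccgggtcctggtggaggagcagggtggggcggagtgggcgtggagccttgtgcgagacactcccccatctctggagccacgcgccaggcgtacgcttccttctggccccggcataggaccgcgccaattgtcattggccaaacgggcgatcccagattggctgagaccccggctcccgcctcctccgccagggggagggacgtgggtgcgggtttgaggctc
Tnfrsf19: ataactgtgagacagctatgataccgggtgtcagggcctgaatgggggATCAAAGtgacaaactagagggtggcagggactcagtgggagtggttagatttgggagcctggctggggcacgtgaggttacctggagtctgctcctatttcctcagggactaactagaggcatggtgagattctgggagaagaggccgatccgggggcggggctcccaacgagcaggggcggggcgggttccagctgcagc
A match in these windows is a description of letters only, and the search says nothing of sites farther from the gene.

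UMIs were summed per mouse and cell type and are given as counts per 1000000 UMIs of that sum (CPM). CPM intervals are exact 95% Poisson intervals and cover counting error only. As cells of one mouse are not replicates, the sums of the 9 epithelial types were tested with edgeR's quasi-likelihood test, with cell type and mouse as terms and Benjamini-Hochberg adjustment over 11013 genes. All 10 members passed the filter on low counts. The authors named the cell types from marker genes in the same cells, so an adjusted p states how far annotated types stand apart and is not an independent test of a marker. Against the mean of the other 8 epithelial types, 9 of 10 members were higher in stem cells and none was lower at an adjusted p under 0.05. Of all genes tested 15.4% were called higher and 10.1% lower in stem cells. The median log2 fold change was 1.76 over the members and 0.03 over all genes.

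**Figure D1:**
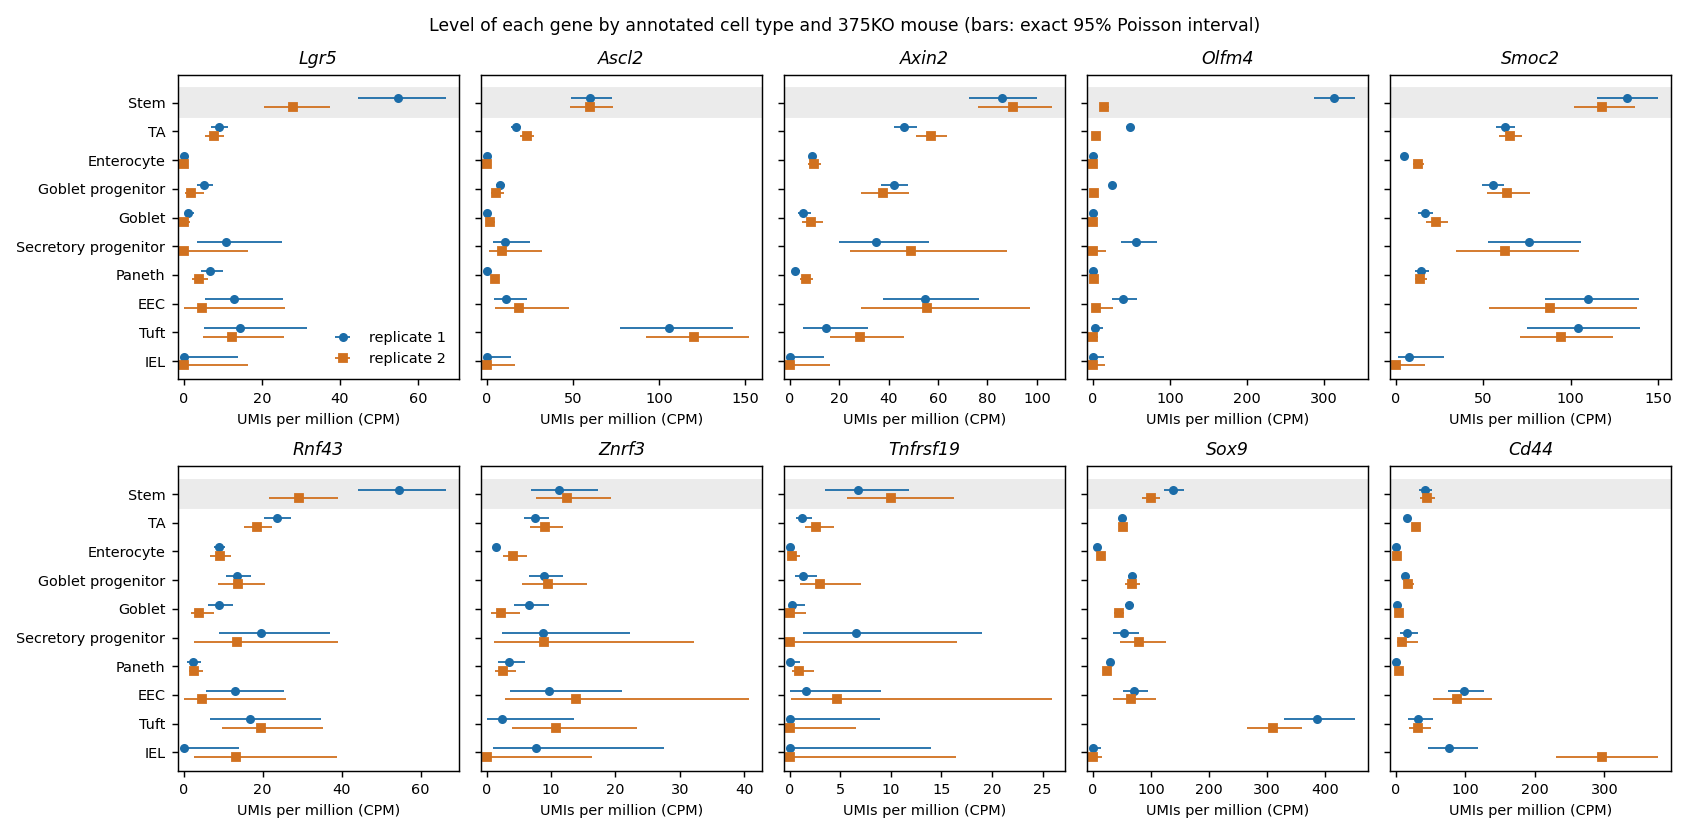
Level of each gene in CPM (horizontal axis, linear) in the 10 annotated cell types, 1 point per 375KO mouse with its exact 95% Poisson interval. Stem cells (shaded) had the highest CPM in both mice for Lgr5, Axin2, Olfm4, Smoc2, Rnf43 and Tnfrsf19. Tuft cells had it for Ascl2 and Sox9, and EECs led the epithelium for Cd44. For Cd44 IELs of replicate 2 were higher still, with 48 of their 67 UMIs in 1 cell. Scaling with TMM factors puts Paneth cells first for Lgr5 and Znrf3 in both mice and for Olfm4 and Smoc2 in replicate 2, and in thinned cells Smoc2 in replicate 1 and Tnfrsf19 in both mice were highest in another type.

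Lgr5 (chr10:115450311-115587780, minus strand), a receptor for R-spondins and the reference marker of cycling crypt-base stem cells, had 54.9 CPM (95% interval 44.6 to 67.0, 98 UMIs) in stem cells of replicate 1 and 28.1 CPM (20.5 to 37.5, 45 UMIs) in replicate 2. TA cells had 9.01 and 7.69 CPM, tuft cells 14.5 and 12.5 CPM, and EECs 12.9 and 4.64 CPM in replicates 1 and 2. The tuft values rest on 6 and 7 UMIs and the EEC values on 8 UMIs and 1 UMI, too few to rank these types. Stem cells were above every other type in both mice, and the ranges of tuft cells, EECs, TA cells, secretory progenitors, Paneth cells and goblet progenitors overlapped each with the next. Enterocytes held 0.103 CPM in replicate 1 and no Lgr5 UMI in replicate 2, where the limit of 3 counts puts stem cells at least 50.0-fold higher. The fitted log2 fold change against the mean of the other types was 3.31 (SE 0.26, edgeR adjusted p = 1.0e-10). Single-mouse values, taken from log2 CPM with a prior count of 2 and not from the fit, were 2.93 in replicate 1 and 3.21 in replicate 2. Because the measures differ, a fitted value can lie above both mice. Against TA cells the fitted log2 fold change was 2.41 (SE 0.29, edgeR adjusted p = 9.0e-07).

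For Paneth cells the Lgr5 comparison depended on the scaling. Their CPM was 6.83 in replicate 1 and 3.90 in replicate 2, below stem cells in both mice. The 10 leading genes take 82.6% and 81.9% of all Paneth UMIs in replicates 1 and 2, and the TMM factors of the Paneth sums were 0.156 and 0.121 against 0.952 to 1.59 for the other sums. After TMM scaling Lgr5 stood at 43.9 and 32.2 CPM in Paneth cells and at 41.7 and 23.3 CPM in stem cells, and the log2 fold change of stem against Paneth cells was -0.24 (SE 0.34, edgeR adjusted p = 0.653). Paneth cells also had the lowest median mitochondrial percent of the epithelial types, 0.0907% and 0.185%, and the highest median depth, 44684 and 80820 UMIs per cell. The part of depth in these Paneth values was not tested.

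Rnf43 (chr11:87662722-87735539, plus strand) and Znrf3 (chr11:5276324-5444847, minus strand) are membrane ubiquitin ligases that remove Frizzled receptors and so limit Wnt signaling. Rnf43 stood at 54.4 CPM in stem cells of replicate 1 and 29.3 CPM in replicate 2. Stem cells exceeded every other type in both mice, followed by TA cells with 23.6 and 18.5 CPM and tuft cells with 16.9 and 19.6 CPM, whose ranges overlapped. Its log2 fold change was 1.61 (SE 0.21, edgeR adjusted p = 1.0e-06) against the other types and 1.11 (SE 0.24, edgeR adjusted p = 0.00291) against TA cells. Znrf3 was the member that did not pass the test, with a log2 fold change of 0.58 (SE 0.35, edgeR adjusted p = 0.247). Znrf3 was low throughout, at 11.2 and 12.5 CPM in stem cells of replicates 1 and 2 and at 9.67 and 13.9 CPM in EECs. Stem cells and EECs overlapped at the top of its order, but the EEC values rest on 6 and 3 UMIs. These counts are too few to rank the types. Znrf3 passed the test with library size scaling (log2 fold change 0.96, edgeR adjusted p = 0.0357) and with all other epithelial cells in 1 sum per mouse (0.99, edgeR adjusted p = 0.00772), and against Paneth cells its fold change was negative at -1.18 (edgeR adjusted p = 0.0708).

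Axin2 (chr11:108920349-108950783, plus strand), a scaffold of the β-catenin destruction complex and a direct Wnt target, had, after Ascl2, the stem cell level that differed least between the mice as a ratio. It stood at 85.8 CPM in replicate 1 and 90.4 CPM in replicate 2. EECs followed with 54.8 and 55.7 CPM, TA cells with 46.4 and 57.2 CPM and secretory progenitors with 34.7 and 49.1 CPM, and these types overlapped each with the next while stem cells did not overlap them. Enterocytes held 9.14 and 9.72 CPM, and every annotated epithelial type held Axin2 UMIs in both mice. The part of RNA set free from other cells in these low values was not tested. The log2 fold change was 1.72 (SE 0.17, edgeR adjusted p = 1.3e-08) against the other types and 0.90 (SE 0.21, edgeR adjusted p = 0.00642) against TA cells. The TA difference missed the threshold with DESeq2 (log2 fold change 0.91, adjusted p = 0.0582).

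Ascl2 (chr7:142966829-142969264, minus strand) is a transcription factor of crypt-base stem cells, and Sox9 (chr11:112782224-112787760, plus strand) a transcription factor of crypt progenitors, Paneth cells and tuft cells. Ascl2 had 60.0 CPM in replicate 1 and 59.8 CPM in replicate 2 in stem cells, and tuft cells held 106 and 120 CPM. Tuft cells were higher than stem cells in both mice, with a log2 fold change of stem against tuft cells of -0.68 (SE 0.31, edgeR adjusted p = 0.124). TA cells stood at 16.8 and 23.3 CPM and Ascl2 was higher in stem cells than in TA cells by 1.73 on the log2 scale (SE 0.27, edgeR adjusted p = 1.5e-04). Against the mean of the other types its log2 fold change was 2.90 (SE 0.25, edgeR adjusted p = 8.0e-09).

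Sox9 was likewise highest in tuft cells, at 387 CPM in replicate 1 and 311 CPM in replicate 2, against 138 and 99.7 CPM in stem cells. Stem cells were lower than tuft cells by a log2 fold change of -1.33 (SE 0.21, edgeR adjusted p = 2.6e-05). Sox9 was also called lower in stem than in Paneth cells, at -1.04 (SE 0.22, edgeR adjusted p = 5.0e-04), and there the direction rests on TMM scaling. Without it Paneth cells held 29.9 and 23.6 CPM, below stem cells, and with it they held 192 and 195 CPM against 105 and 82.8 CPM in stem cells. Against the mean of the other types Sox9 was higher in stem cells by 0.76 (SE 0.16, edgeR adjusted p = 5.1e-04), the smallest change among the 9 members called.

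Olfm4 (chr14:79984081-80023139, plus strand), a secreted glycoprotein used to mark stem cells of the small intestine, had 313 CPM (558 UMIs) in stem cells of replicate 1 and 14.3 CPM (23 UMIs) in replicate 2. Stem cells ranked first in both mice, but the level in replicate 2 was below that of secretory progenitors, TA cells, EECs and goblet progenitors in replicate 1, which stood at 56.5, 47.8, 38.7 and 24.4 CPM. No Olfm4 UMI was found in enterocytes or goblet cells of either mouse, and stem cells were at least 2019-fold above the enterocyte limit in replicate 1 and at least 25.6-fold in replicate 2. The fitted log2 fold change against the mean of the other types was 5.93 (SE 0.55, edgeR adjusted p = 2.9e-04). Single-mouse values were 5.72 in replicate 1 and 3.05 in replicate 2, and they depend on the prior count since some types hold no UMI. The fitted value does not use that prior count, lies above both, and is also uncertain where types hold no UMI. Against TA cells Olfm4 missed the threshold, with a log2 fold change of 2.62 (SE 0.58, edgeR adjusted p = 0.0584), and it passed with Paneth cells left out (2.64, edgeR adjusted p = 1.6e-08), in thinned cells, under a stricter cell filter, and when low counts were not filtered out.

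Smoc2 (chr17:14279506-14404790, plus strand), a secreted matrix protein of the stem cell signature, had 132 CPM in replicate 1 and 118 CPM in replicate 2 in stem cells. Tuft cells held 104 and 94.7 CPM and EECs 110 and 88.2 CPM, below stem cells of the same mouse in both mice. Smoc2 was higher in stem cells by 1.29 against the mean of the other types (SE 0.17, edgeR adjusted p = 1.3e-06) and by 1.10 against TA cells (SE 0.22, edgeR adjusted p = 0.00153), on the log2 scale. Against EECs and tuft cells the log2 fold changes were 0.53 (edgeR adjusted p = 0.167) and 0.57 (edgeR adjusted p = 0.130), and against Paneth cells -0.06 (edgeR adjusted p = 0.910).

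Tnfrsf19 (chr14:60963875-61046490, minus strand), also called Troy, is a surface receptor of the TNF receptor superfamily, and Cd44 (chr2:102811141-102901665, minus strand) is a hyaluronan receptor and Wnt target. Tnfrsf19 was the rarest member, with 6.73 CPM (12 UMIs) in stem cells of replicate 1 and 9.97 CPM (16 UMIs) in replicate 2. Secretory progenitors came close in replicate 1 with 6.52 CPM (3 UMIs) and held no UMI in replicate 2. TA cells held 1.18 and 2.62 CPM, and tuft cells held no UMI in either mouse. For tuft cells of replicate 1 and secretory progenitors of replicate 2 the limit of 3 counts, 7.25 and 13.4 CPM, exceeded the stem level. Those zeros therefore set no bound on a difference, and in tuft cells of replicate 2 the bound was at least 1.86-fold. Its log2 fold change was 3.38 (SE 0.63, edgeR adjusted p = 1.6e-04) against the other types and 2.28 (SE 0.59, edgeR adjusted p = 0.0178) against TA cells, and the TA difference missed the threshold under the stricter cell filter (edgeR adjusted p = 0.0577).

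Cd44 had 41.5 CPM in replicate 1 and 44.9 CPM in replicate 2 in stem cells, and EECs were higher in both mice at 98.3 and 88.2 CPM. The difference of stem cells from EECs was -0.97 (SE 0.40, edgeR adjusted p = 0.0892) on the log2 scale. IELs, which as lymphocytes express Cd44, held 76.2 and 297 CPM. The value of replicate 2 rests on 67 UMIs in 18 cells, and 1 cell held 48 of them. In IELs of replicates 1 and 2 macrophage markers summed to 1927 and 93.2 CPM, and B and plasma cell markers to 3.81 and 4773 CPM. The part of such cells in the Cd44 level was not tested. Against the mean of the other epithelial types Cd44 was higher in stem cells by 1.81 (SE 0.30, edgeR adjusted p = 2.5e-04), and against TA cells the log2 fold change was 1.10 (SE 0.34, edgeR adjusted p = 0.0746). The TA difference of Cd44 passed with Paneth cells left out (edgeR adjusted p = 0.00410), in thinned cells and when low counts were not filtered out.

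Across single cell types the members parted from stem cells to different degrees. All 10 were higher in stem cells than in enterocytes, where 23.5% of all genes were called higher. Of the members 9 were higher than in goblet cells (19.2% of all genes) and 9 than in goblet progenitors (5.36% of all genes), Znrf3 being the exception in both. Against TA cells 7 were called higher, beside 1.90% of all genes, with a median of 1.22 over the members and -0.01 over all genes. Without the mouse as a term Lgr5 was the 1 member still called against TA cells, and the adjusted p of the other 6 ranged from 0.0516 to 0.669 in edgeR. With DESeq2 5 were called against TA cells, Axin2 missing the threshold and Tnfrsf19 having no adjusted p. Against secretory progenitors 4 were called higher (Lgr5, Ascl2, Axin2 and Sox9), also beside 1.90% of all genes. Of the members 6 were called higher than in EECs (11.6% of all genes), 5 higher than in tuft cells (10.0% of all genes) and 3 higher than in Paneth cells (14.9% of all genes). Without the mouse term all 10 calls against enterocytes were kept, and 6 of 9 were lost against goblet progenitors, 2 of 9 against goblet cells (Olfm4 and Sox9) and 4 of 4 against secretory progenitors. Against EECs Axin2 and Olfm4 were lost, against tuft cells Lgr5, Olfm4, Rnf43 and Tnfrsf19, and against Paneth cells Ascl2, Axin2 and Olfm4. Sox9 was the member called lower in stem cells, against tuft cells, where 11.2% of all genes were lower, and against Paneth cells, where 16.7% were. The values against Paneth cells differed between mice, since Cd44, Olfm4 and Tnfrsf19 had no UMI in Paneth cells of replicate 1 and 3.90, 1.60 and 0.917 CPM in replicate 2. Olfm4 in stem against Paneth cells had a single-mouse log2 fold change of 8.85 in replicate 1 and -0.15 in replicate 2. The other 2 calls were also larger in replicate 1, with 4.30 and 0.39 for Ascl2 and 2.30 and 0.50 for Axin2. Paneth cells of replicate 1 held 0.284 CPM of Ascl2 and those of replicate 2 held 4.58 CPM.

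**Figure D2:**
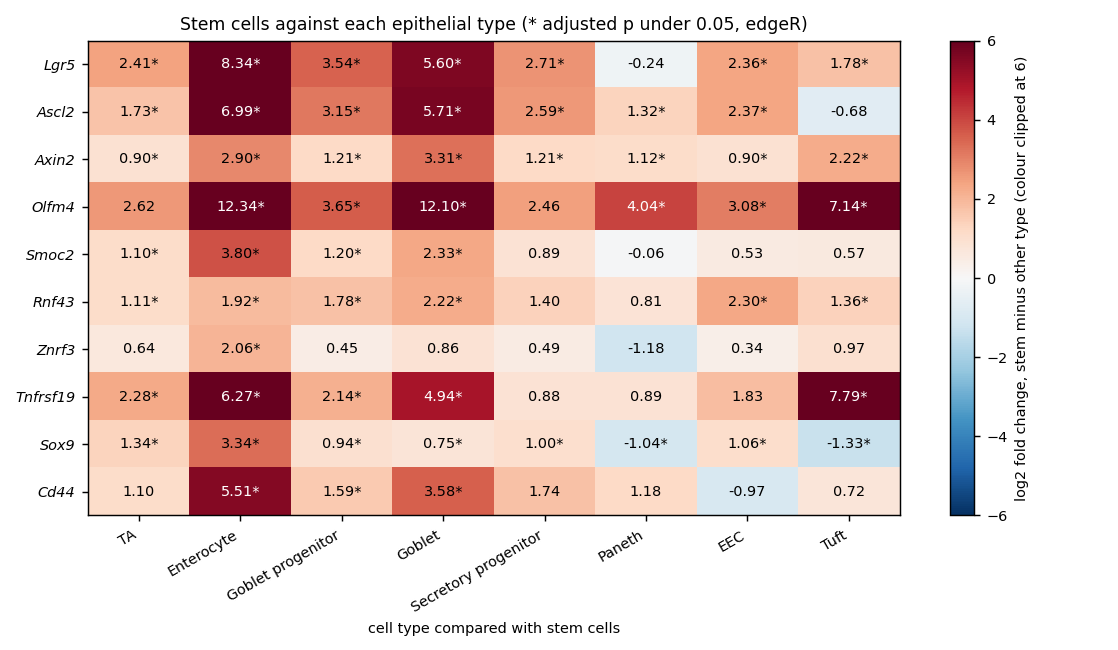
Fitted log2 fold change of stem cells against each of 8 epithelial types (columns) for each gene (rows), with red for higher in stem cells, blue for lower and an asterisk for an edgeR adjusted p under 0.05. All 10 genes were called higher than in enterocytes and 3 than in Paneth cells, the comparison that TMM scaling moves most, and values against a type with no UMI are not bounds.

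The TA label held 4 numbered clusters of the authors, 5, 8, 10 and 13, and stem cells were 1 cluster, number 4. Levels of several members in TA cluster 13 were close to those in stem cells, and others were higher or lower. Cluster 13 was chosen after its values were seen, so its levels are given without a test. It had 53 cells in each mouse, 16.6% of the TA cells of replicate 1 and 16.4% of those of replicate 2. These cells held 71 of the 76 Lgr5 UMIs of TA cells in replicate 1 and 39 of 44 in replicate 2. Lgr5 stood at 43.2 CPM in cluster 13 of replicate 1 and 41.2 CPM in replicate 2, and between 0 and 3.27 CPM in clusters 5, 8 and 10. Stem cells had 54.9 and 28.1 CPM of Lgr5, above cluster 13 in replicate 1 and below it in replicate 2. Ascl2 in cluster 13 stood at 74.2 and 81.4 CPM and Axin2 at 114 and 141 CPM, above the stem cells of the same mouse in both. Smoc2 had 153 and 128 CPM in cluster 13 against 132 and 118 CPM in stem cells. Rnf43 had 52.9 and 42.3 CPM against 54.4 and 29.3 CPM, and Sox9 128 and 124 CPM against 138 and 99.7 CPM. Both were thus lower than in stem cells in replicate 1 and higher in replicate 2. Olfm4 kept the contrast between mice in cluster 13, at 196 CPM in replicate 1 and 16.9 CPM in replicate 2. In replicate 1 this was below the 313 CPM of stem cells, and in replicate 2 stem cells had 14.3 CPM. Cd44 had 38.3 and 67.7 CPM in cluster 13 against 41.5 and 44.9 CPM in stem cells. Znrf3 had 12.8 and 11.6 CPM against 11.2 and 12.5 CPM, and Tnfrsf19 4.87 and 13.7 CPM against 6.73 and 9.97 CPM. The proliferation gene Mki67, outside the set, was lower in stem cells, at 75.7 and 28.1 CPM, than in every TA cluster. Cluster 13 had 336 and 210 CPM, within the range of the other TA clusters. Cluster 5 had 454 and 254 CPM, cluster 10 230 and 163 CPM and cluster 8 151 and 115 CPM. The median depth in cluster 13 was 25176 and 16930 UMIs per cell, against 12282 and 12559 in stem cells, and the part of depth was not tested.

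**Figure D3:**
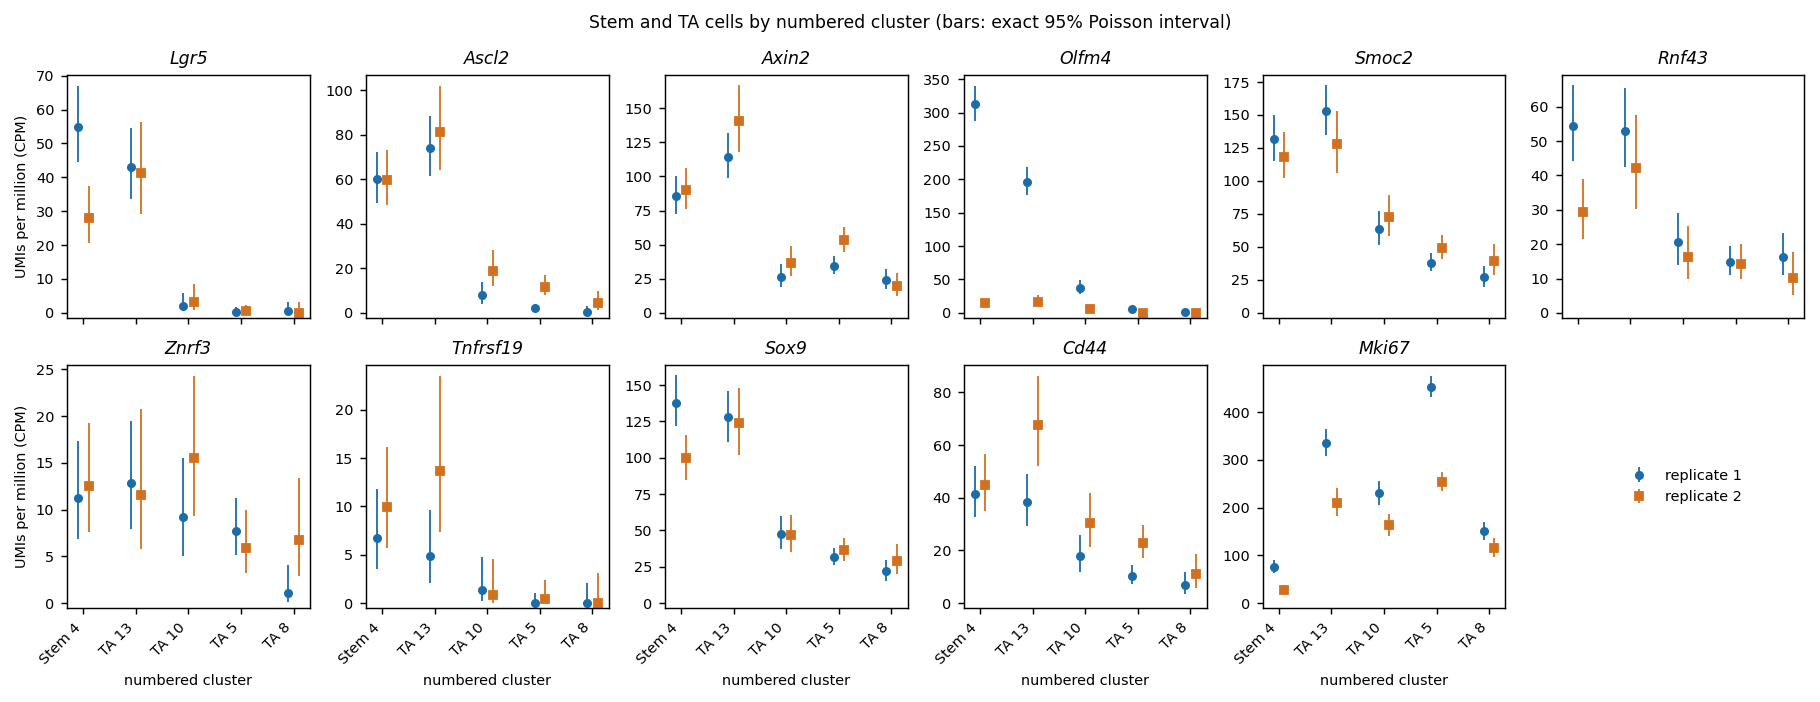
CPM of each gene and of the proliferation gene Mki67 (vertical axes) in stem cluster 4 and TA clusters 13, 10, 5 and 8, 1 point per mouse with its exact 95% Poisson interval. Lgr5 stood between 28.1 and 54.9 CPM in stem cells and TA cluster 13 and at 3.27 CPM or less in the other TA clusters, while Mki67 was higher in TA cluster 13 than in stem cells in both mice.

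The mice differed most in Olfm4. The CPM ratio of replicate 1 to replicate 2 was 21.8 (exact 95% counting interval 14.4 to 34.7) in stem cells, 11.4 (7.54 to 18) in TA cells and 13.5 (4.54 to 66.5) in goblet progenitors. In stem cells Lgr5 was also higher in replicate 1, by 1.96 times (1.36 to 2.85), as were Rnf43 by 1.86 times (1.30 to 2.69) and Sox9 by 1.39 times (1.13 to 1.70). Intervals of the other 6 members spanned 1 in stem cells, from 0.754 to 1.33 for Ascl2, with Axin2 at a ratio of 0.949 (0.751 to 1.20). In TA cells the intervals of Cd44 at 0.557 (0.441 to 0.701), Ascl2 at 0.723 (0.567 to 0.923) and Axin2 at 0.812 (0.70 to 0.944) lay below 1. Stem cells of replicate 1 also had the higher median mitochondrial percent, 10.2% against 5.90%, and the stricter cell filter kept 59 of the 139 stem cells of replicate 1 and 105 of the 117 of replicate 2. The part of this difference in quality was not tested. With 1 library per mouse these ratios have no replicate check, and mouse, library and preparation cannot be told apart.

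Among 2654 genes of at least 50 CPM in stem cells the median ratio was 1.16, and 267 of them (10.1%) differed by 2-fold or more either way. Olfm4 had the sixth place among those higher in replicate 1, after Reg3b, Gm10260, Defa24, Lyz1 and Agr2, of which Defa24 and Lyz1 mark Paneth cells and Agr2 marks goblet cells. The summed level of 6 Paneth markers in stem cells was 201 CPM in replicate 1 and 9.97 CPM in replicate 2, that of 6 goblet markers 581 and 217 CPM, and that of 6 enterocyte markers 97.0 and 17.5 CPM. The 6 IEL markers went the other way, with 1 UMI (0.561 CPM) in stem cells of replicate 1 and 144 UMIs (89.8 CPM) in replicate 2. Non-member stem markers summed to 907 and 655 CPM, and 6 stromal markers to 0 and 2 UMIs. The part of these other cell types in the difference between mice was not tested.

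**Figure D4:**
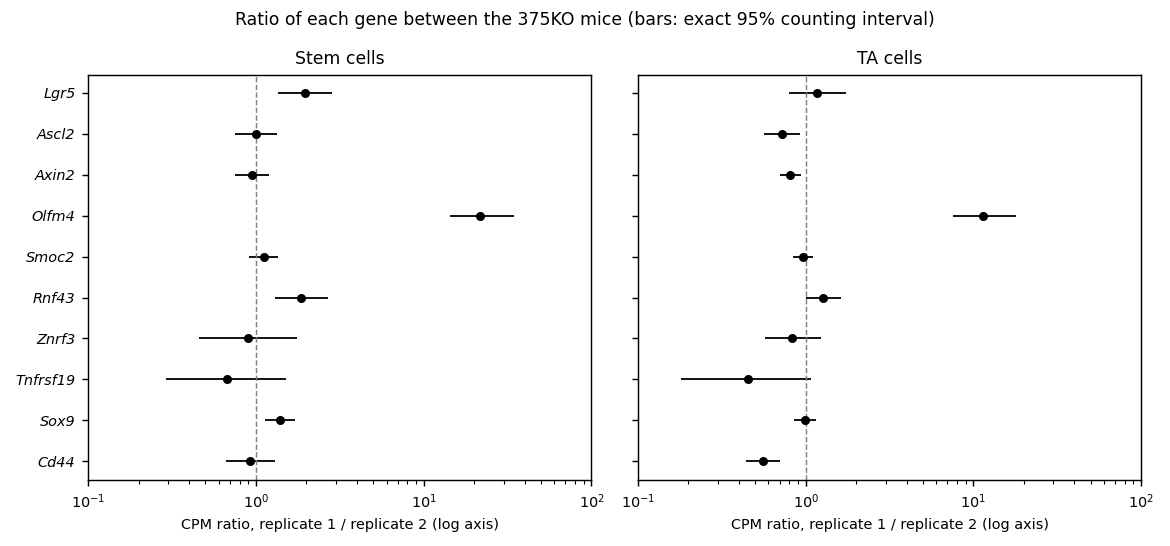
CPM ratio of replicate 1 to replicate 2 (log axis) for each gene in stem and TA cells, with exact 95% counting intervals and a dashed line at 1. Olfm4 stood apart at 21.8 in stem and 11.4 in TA cells, while every other gene lay between 0.452 and 1.96.

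Cell by cell, the members were sparse. To set depths equal, each cell was thinned to 5000 UMIs and shallower cells were left out, among them 3 stem cells of replicate 1. Lgr5 was then seen in 26 of 136 stem cells of replicate 1 (19.1%, exact binomial 95% interval 12.9 to 26.7) and in 15 of 117 of replicate 2 (12.8%, 7.36 to 20.3). Before thinning the shares were 32.4% and 24.8%, at median depths of 12282 and 12559 UMIs. Enterocytes served as the type that should lack the gene, and 1 of 930 and 0 of 382 thinned enterocytes held an Lgr5 UMI, the latter allowing up to 0.785% of cells with a UMI at this depth (3 counts), which is no limit on cells that express the gene. The 11 and 18 thinned IELs held no Lgr5 UMI and are too few to set a level. Olfm4 was seen in 62.5% (53.8 to 70.6) of stem cells in replicate 1 and 6.84% (3.0 to 13) in replicate 2, and in no thinned enterocyte of either mouse. Smoc2 was the member with the largest share in replicate 2, with 42.7% there and 45.6% in replicate 1. Sox9 was seen in 55.1% and 30.8% of stem cells and in 82.1% and 73.7% of tuft cells. Axin2 reached 35.3% and 36.8% of stem cells and 4.62% and 4.97% of enterocytes. Znrf3, with 4.41% and 2.56% of stem cells, and Tnfrsf19, with 2.94% and 3.42%, were near the limit of what this depth shows.

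After thinning, stem cells held UMIs of a median of 3 members in replicate 1 and 2 in replicate 2, and 9.56% and 18.8% of them held none. A thinned stem cell had UMIs of 2.84 ± 1.80 members on average in replicate 1 and 2.01 ± 1.53 in replicate 2 (SD over cells), and the most seen in one cell was 8. At least 3 members were seen in 51.5% of stem cells of replicate 1 (42.8 to 60.1) and 33.3% of replicate 2 (24.9 to 42.6), against 11.6% and 9.91% of TA cells. Tuft cells came next to stem cells with 30.8% and 26.3%, EECs had 17.0% and 10.0%, and enterocytes 0.108% and 0.262%. The mean in tuft cells was 2.10 and 1.82 members, and 5.13% and 5.26% of them held none, a smaller share than in stem cells. In replicate 1 Olfm4 was seen in 26 of 26 stem cells with an Lgr5 UMI and in 59 of 110 without one. In replicate 2 the counts were 2 of 15 and 6 of 102. Ascl2 was seen in 30.8% of stem cells with an Lgr5 UMI and 13.6% without in replicate 1, and in 46.7% and 22.5% in replicate 2. The intervals of these Ascl2 shares overlap within each mouse. In replicate 1 every other member also had the larger share in stem cells with an Lgr5 UMI. In replicate 2 Smoc2 (40.0% with and 43.1% without), Rnf43 (13.3% and 15.7%) and Tnfrsf19 (0% and 3.92%) went the other way, and the remaining members did not.

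**Figure D5:**
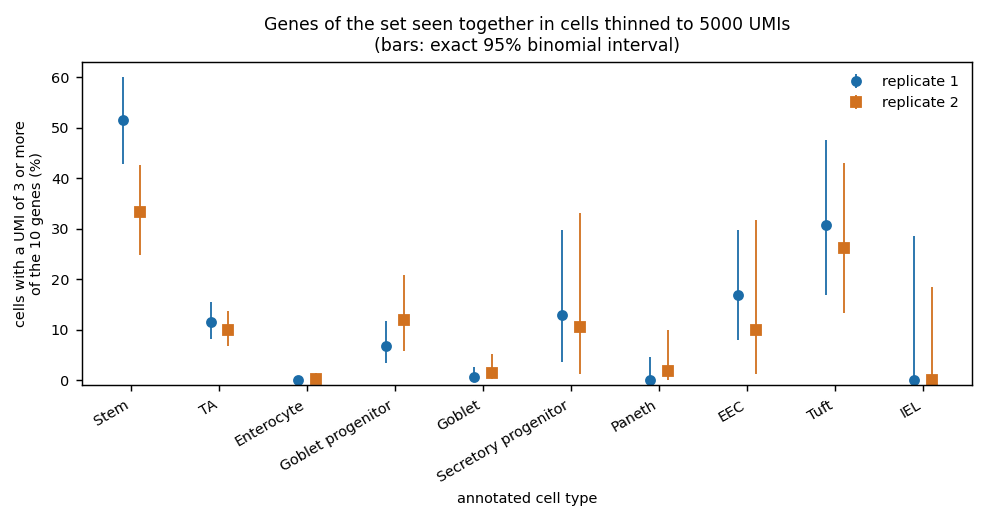
Percent of cells, thinned to 5000 UMIs, with a UMI of 3 or more of the 10 genes (vertical axis) by annotated type, 1 point per mouse with its exact 95% binomial interval. Stem cells led in both mice with 51.5% and 33.3%, tuft cells followed with 30.8% and 26.3%, and enterocytes were below 1%.

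Beyond the set, 101 further genes of the Wnt pathway and of the crypt base were read from 9 lists. Of these 71 passed the filter, and 22 were called higher and 5 lower in stem cells against the mean of the other types, beside 15.4% higher and 10.1% lower over all genes tested. Other crypt-base stem cell genes made up most of the rise, with 15 of 17 tested called higher and a median log2 fold change of 1.73. The 6 markers used to check the stem label are all in this list, so the list and that check are not independent. The genes called included the gastrokine Gkn3 (3.68, SE 0.43, edgeR adjusted p = 4.3e-05) and the IGF-binding protein Igfbp4 (3.26, SE 0.28, edgeR adjusted p = 5.8e-08), while Ets2 (-0.17) and Prom1 (-0.68) were not called. Not every gene called was highest in stem cells. Among the epithelial types Nrn1 and Tspan12 had their highest mean CPM in EECs, Msi1 and Kcnq1 in tuft cells and Mex3a in secretory progenitors. These genes were named after their values were seen. Of 10 other known Wnt targets the transcription factors Sp5 (3.11, SE 0.45, edgeR adjusted p = 8.4e-06) and Myc (2.34, SE 0.20, edgeR adjusted p = 5.1e-10) and the cyclin Ccnd1 (1.28, SE 0.36, edgeR adjusted p = 0.0311) were higher. The cell cycle inhibitor Cdkn1a (-2.86, edgeR adjusted p = 0.00421) and the Paneth cell protease Mmp7 (-3.39, edgeR adjusted p = 0.0288) were lower, and the call of Mmp7 was lost with Paneth cells left out (edgeR adjusted p = 0.197), under the stricter cell filter, without the mouse term and in the pooled fit. Ccnd1 was named after its value was seen. The list of Wnt targets was not divided into genes that Wnt raises and genes that it lowers. The direction of a call in it is therefore not read as more or less Wnt signaling.

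In the lists of the signaling machinery counts of 1 call are near the share of all genes, 15.4% higher and 10.1% lower, and say nothing particular of a list. Of 11 receptors tested 3 were called higher, the Wnt receptors Fzd2 (2.34, SE 0.47, edgeR adjusted p = 3.4e-04), Fzd7 (1.58, edgeR adjusted p = 0.00132) and Fzd5 (0.49, edgeR adjusted p = 0.0388), and the median of the 11 was 0.49. Fzd2 was nonetheless highest in secretory progenitors, at 21.7 and 17.9 CPM against 11.2 and 6.86 CPM in stem cells, and Fzd5 in TA cells, at 112 and 111 CPM against 53.8 and 71.7 CPM. Among 4 tested genes of Wnt secretion and transduction none was called, and Dvl2 had 0.88 (edgeR adjusted p = 0.193). Of 12 destruction complex genes 1 was lower, as was 1 of 11 nuclear factors, the latter being the β-catenin partner Tcf7l2 (-0.65, SE 0.21, edgeR adjusted p = 0.0228). The former was the kinase Csnk1a1 (-0.40, edgeR adjusted p = 0.0128), named like Fzd7 and Fzd5 after its value was seen. The Tcf7l2 call was lost with library size scaling (-0.27, edgeR adjusted p = 0.377), without the mouse term, in thinned cells and with Paneth cells left out. Of 4 inhibitors tested the secreted Frizzled-related protein Sfrp5 was higher (2.67, SE 0.36, edgeR adjusted p = 1.8e-06), although EECs held 61.2 and 74.3 CPM and stem cells 17.4 and 29.3 CPM. The R-spondin receptor Lgr4 had a log2 fold change of 0.07 (SE 0.19, edgeR adjusted p = 0.872), with 58.3 and 64.8 CPM in stem cells of replicates 1 and 2. Wnt3, a Wnt ligand made by Paneth cells, was the single ligand of 8 that passed the filter and was lower in stem cells (-3.45, SE 0.71, edgeR adjusted p = 4.7e-04). Stem cells held 0.561 and 0.623 CPM of Wnt3, Paneth cells 39.3 and 28.9 CPM and EECs 30.6 and 51.1 CPM, and in thinned cells the call was lost (edgeR adjusted p = 0.189).

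The pattern of each member over the 18 sums of mouse and epithelial type was also compared with that of every other gene tested, as Pearson's r on log2 CPM. The sums share libraries and TMM factors, so r is a description. Closest to Lgr5 were Grsf1 (0.814), Mcc (0.810) and Nfkbil1 (0.808), and closest to Olfm4 were Nom1 (0.900), Wdr12 (0.891) and Bms1 (0.884). Axin2 was closest to Scn2b (0.889), Cdca7 (0.882) and Mcm2 (0.873), Tnfrsf19 to Gkn3 (0.857), Cdca7 (0.842) and Dna2 (0.828), and Ascl2 to Wdr34 (0.885), Slco3a1 (0.882) and Cnn3 (0.867). Smoc2 had the closest partner of all members, Nap1l1 (0.944), followed by Arhgdig (0.898) and Sorbs2 (0.891). Sox9 was closest to Tmem9 (0.900), Cd44 to Igsf8 (0.878), Cnn3 (0.866) and Mex3a (0.862), Znrf3 to Dach1 (0.868), Bex1 (0.840) and Syne4 (0.819), and Rnf43 to Fance (0.816), Exosc5 (0.811) and Cdca7l (0.803). Within the set Lgr5 and Smoc2 were most alike (0.806), and Olfm4 and Sox9 least (0.0972).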

How the data were processed

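Cells of jejunal crypts from 2 375KO mice were profiled with the 10x Genomics 3′ kit. Per the labels and the methods of the study, the authors aligned reads to the mm10 reference with Cell Ranger 3.0.1, removed free RNA with SoupX (to which of the deposited matrices is not stated), removed doublets with scDblFinder and cells with fewer than 1500 genes or over 25% mitochondrial reads, and clustered and named cells in Seurat (version 3.2.1 in the submitters' processing notes). The authors deposited UMI counts per gene and barcode as whole numbers, and the percent of mitochondrial reads of each cell. Annotated cells were matched to the per-library matrices by barcode, and for 3275 of 3275 cells the annotation gave the library, UMI sum and number of genes found in the deposited table of kept cells. The tables also hold 2937 cell columns of another series, which were not used.

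UMI counts were summed per mouse and type (sums of at least 10 cells) and tested in edgeR 4.0.16 (R 4.3.3) with TMM factors, filterByExpr and the mouse as a block, since all types of a number come from the same animal, two-sided, at 0.05. The fit had 18 sums and 8 residual degrees of freedom. A prior count of 2 went into log2 CPM, which gave the single-mouse log2 fold changes and the correlations, and not into the fit. SEs are the log2 fold change over the root of F. DESeq2 1.42.0 was an alternative, as were library size scaling, no filter, no block, thinning to 5000 UMIs, a stricter cell filter (at least 2000 genes, at most 10% mitochondrial reads), leaving out Paneth cells, adding IELs, pooling the other cells, and each mouse alone. The scripts were tested on simulated data. Intervals and the limit of 3 counts cover counting error only, and whether the 2 mice stand for others was not tested. Depth, 44017234 and 22163354 UMIs in kept cells, limits the rare members most.

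The members and the Wnt lists were chosen with earlier results of these data known. Genes named beyond the members are, per Wnt list, up to 2 with the highest and up to 2 with the lowest log2 fold change, and per member up to 3 most alike in log2 CPM, of which some are not reported here. Markers were named where a result turns on them.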

Additional observations from a re-analysis of the deposited data

Results flagged for a closer look

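UMIs of the members were also found in the barcodes that the authors did not keep, 5583 in replicate 1 and 58 in replicate 2, which enter no comparison. These are values above the limit that a count of 0 allows, 0.148 CPM in replicate 1 and 1.98 CPM in replicate 2. In replicate 1 they were 13.7 CPM for Lgr5, 7.69 for Ascl2, 15.5 for Axin2, 31.8 for Olfm4, 29.0 for Smoc2, 14.4 for Rnf43, 4.39 for Znrf3, 1.77 for Tnfrsf19, 31.8 for Sox9 and 11.3 for Cd44. In replicate 2 they were 9.26 CPM for Lgr5, 4.63 for Ascl2, 23.2 for Axin2, 3.97 for Olfm4, 43.7 for Smoc2, 14.6 for Rnf43, 2.65 for Znrf3, 48.3 for Sox9 and 9.26 for Cd44, and Tnfrsf19 had no UMI. Olfm4 was higher in replicate 1 here too, as it was in stem cells, and what these barcodes hold was not tested.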

How the results depend on the processing

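Against the mean of the other types the 9 members reported as higher were called under every alternative in which they were tested, while thinned cells left 8 of the members to test. The number of genes called was 2815 and became 1019 with no replicate block, 1815 in cells thinned to 5000 UMIs and 4388 with other epithelial cells pooled. Of the calls 60.4% were higher in stem cells, 87.6% with library size alone, which moved the median of all genes to 0.40, 72.9% in thinned cells and 39.9% in the pooled fit. Against TA cells 532 genes were called, 834 without the filter on low counts and 70 with no replicate block. Without the block 1 of the 7 members, Lgr5, was still called against TA cells, and over the other 7 single types the 48 calls of members became 27. Members with their highest CPM in stem cells in both mice numbered 6, 5 under the stricter cell filter (without Tnfrsf19), 4 in thinned cells (without Smoc2 and Tnfrsf19), and 3 with TMM factors, where the low Paneth factors move Paneth cells up. With 1 mouse left out they numbered 6 and 7. For genes of the Wnt lists that were not called, the log2 fold change against the other types changed sign under some settings. With library size scaling they were Lrp5 0.12, Dvl3 0.27, Kremen1 0.30, Nkd1 0.10 and Ets2 0.21. With cells thinned to 5000 UMIs they were Dvl1 -0.49, Amer1 -0.01, Btrc 0.02, Pygo2 0.03, Nkd1 0.90 and Ets2 0.13. With the stricter cell filter they were Lgr4 -0.00, Tle2 -2.17, Kremen1 0.41 and Nkd1 0.05. With Paneth cells left out they were Nkd1 0.70 and Ets2 0.09. With other epithelial cells pooled they were Ror2 0.15, Dvl1 -0.13, Dvl3 0.14, Ets2 0.24 and Prom1 0.02. The cause was not tested for these changes. Low counts limit Tnfrsf19 and Znrf3, and a lone library per mouse limits every difference between mice.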
